A study of Mus musculus with 4 samples.

Results

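The X-linked germline and cancer-testis families were 68 of the 22691 genes measured and 68 of the 952 X-linked ones. They comprised every X-linked gene whose symbol begins with Magea, Mageb, Xlr, Rhox, Ssx or Slx, 66 genes in all, with Trap1a and Tktl1 added by name. Trap1a and Tktl1 were chosen by their measured JF1 share of allele-specific reads and their FPKM in the mutant, so their values below are a description and carry no test. The 66 family genes were taken by symbol, with no threshold on expression.

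The cells were mouse embryonic fibroblasts, primary connective tissue cells grown from female E13.5 fetuses. There were 2 libraries with both Smchd1 alleles intact (Smchd1 +/+, here WT) and 2 libraries homozygous for the MD1 allele (Smchd1 MD1/MD1, here MD1). Both groups also carried the Xist deltaA mutation on one X, inherited from a C57BL6/J (B6) mother, and their fathers were F1 males with a JF1 X. An X with Xist deltaA cannot be silenced in cis, so the maternal B6 X was the active one and the paternal JF1 X the inactive one in WT and MD1 alike, and the share of JF1 reads is called the paternal share. The labels do not say whether the replicates came from separate fetuses, so tests measure the spread between these libraries, which may be technical.

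Cancer-testis genes are transcribed in germ cells, in some cases in placenta, and are kept off in somatic cells, where DNA methylation at their promoters is a main means of silencing. Tumours that lose this methylation can express them, and Trap1a encodes P1A, a classical tumour rejection antigen of mouse mastocytoma that normal mice express in testis and placenta. Many of these families lie on the X chromosome as arrays of near-identical copies. In a female somatic cell such a gene is therefore silenced on the active X as well as on the inactive one. SmcHD1 is a chromatin protein that is enriched on the inactive X and takes part in the methylation of its CpG islands.

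Promoters are shown for the 4 genes with at least 10 allele-specific reads, since the results turn on them. Each covers 300 bases around the RefSeq start, most of them upstream of it, 5′ to 3′ on the gene's strand, and capitals mark CG dinucleotides, the sites at which mammalian DNA is methylated. They lie on the plus strand of GRCm38.p6 at chrX:139333433-139333732 for Trap1a and chrX:74177009-74177308 for Tktl1, and on the minus strand at chrX:53797657-53797956 for Xlr and chrX:73082458-73082757 for Xlr4a.
Trap1a: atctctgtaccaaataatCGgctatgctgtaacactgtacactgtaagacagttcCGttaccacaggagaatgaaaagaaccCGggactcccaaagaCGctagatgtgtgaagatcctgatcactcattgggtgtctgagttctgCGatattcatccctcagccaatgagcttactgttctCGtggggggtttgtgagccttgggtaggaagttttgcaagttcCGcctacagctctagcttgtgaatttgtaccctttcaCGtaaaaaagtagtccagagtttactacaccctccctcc
Tktl1: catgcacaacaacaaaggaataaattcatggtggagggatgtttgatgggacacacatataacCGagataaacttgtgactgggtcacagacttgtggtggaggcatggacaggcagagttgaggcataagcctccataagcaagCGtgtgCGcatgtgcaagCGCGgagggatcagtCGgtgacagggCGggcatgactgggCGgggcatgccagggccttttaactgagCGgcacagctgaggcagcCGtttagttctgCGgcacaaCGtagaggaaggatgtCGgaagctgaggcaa
Xlr: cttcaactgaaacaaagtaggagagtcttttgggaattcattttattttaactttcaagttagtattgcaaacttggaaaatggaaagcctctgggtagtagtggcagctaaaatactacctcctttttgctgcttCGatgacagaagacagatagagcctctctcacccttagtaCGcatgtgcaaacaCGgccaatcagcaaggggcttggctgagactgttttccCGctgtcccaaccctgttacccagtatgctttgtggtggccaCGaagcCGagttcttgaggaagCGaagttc
Xlr4a: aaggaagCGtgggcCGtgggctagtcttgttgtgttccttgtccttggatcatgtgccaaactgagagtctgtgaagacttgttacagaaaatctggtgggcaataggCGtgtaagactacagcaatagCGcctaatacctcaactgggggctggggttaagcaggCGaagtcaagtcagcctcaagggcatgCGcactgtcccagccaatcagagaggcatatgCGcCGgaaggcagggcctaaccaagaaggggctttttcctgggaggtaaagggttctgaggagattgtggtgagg

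The Tktl1 promoter held 13 CG dinucleotides, Trap1a and Xlr4a 8 each and Xlr 7. Promoters were found for 57 of the 68 genes, with 0 to 16 CG dinucleotides and a median of 5, against a median of 7 over 32851 promoters of all genes. The letters CCAAT, searched on both strands after the sequences were seen, occurred in 34 of the 57 (59.6%), in 37.4% of all promoters and in 45.0% of X-linked ones. They were in 9 of 10 Xlr promoters and in that of Trap1a, and absent from that of Tktl1. The letters TCCCGC, part of the sequence known for E2F factors, were in 1 of the 57 promoters, that of Xlr, and in 19.98% of all promoters on either strand. The palindrome CACGTG was in 4 of the 57, all of them Rhox genes, and in 7.15% of all. These matches describe letters only. Copies of a gene were counted separately and are not independent, as every Rhox2 promoter found held CCAAT and no Rhox3 promoter did.

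Nearly all of the germline families stayed at or near 0 in both groups. Total expression was deposited as FPKM, fragments scaled to transcript length and sequencing depth, with a mean per group and no value per library. Of the 68 genes, 53 were listed at 0 in WT and in MD1, against 30.6% of X-linked and 19.2% of autosomal genes. A listed 0 can also be a failed estimate. An FPKM of 0.1 or more was reached by 3 genes in WT, Xlr3b, Xlr and Xlr3a, and by 5 in MD1, Trap1a, Xlr, Xlr3b, Tktl1 and Xlr4a. The corresponding background was 53.6% of X-linked genes in WT and 52.7% in MD1. Of 63 members taken by symbol that were under 0.1 FPKM in WT, 1 reached it in MD1, Xlr4a, and over all X-linked genes under 0.1 in WT the share was 3.62%.

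**Figure D1:**
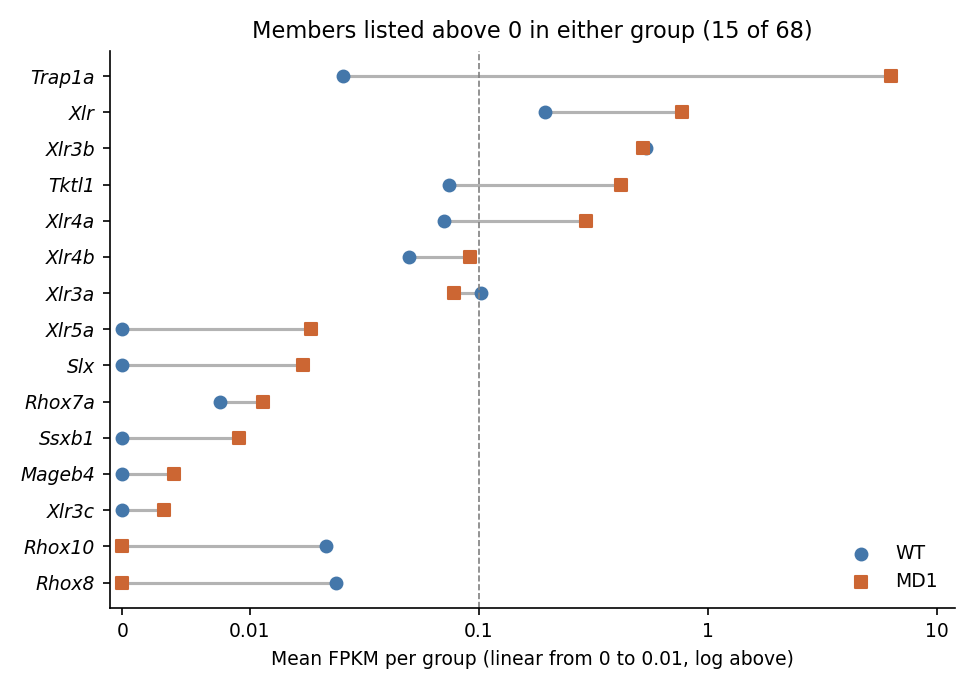
Mean FPKM of the 15 members listed above 0 in either group, WT as blue circles and MD1 as orange squares, 1 value per group with no error; the axis is linear from 0 to 0.01 and logarithmic above, and the dashed line marks 0.1. Trap1a spans the widest distance, from 0.0256 to 6.34, and Xlr3b has nearly the same value in both groups.

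The Magea and Mageb families were at or near 0 by these measures. MAGE proteins of this type bind and regulate ubiquitin ligases and give the cancer-testis class its best known tumour antigens. All 8 Magea genes, which lie between 69467356 and 151524333 on X (mm9), were listed at 0 in both groups. Of the 7 Mageb genes 6 were listed at 0 in both, and Mageb4 was at 0 in WT and 0.00407 FPKM in MD1. No Magea or Mageb gene had an allele-specific read in any library.

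Rhox genes, reproductive homeobox transcription factors, gave the same picture. The 30 Rhox genes of the table occupy 34753800 to 35483143 on X (mm9), and 27 of them were listed at 0 in both groups. Rhox7a had 0.00767 FPKM in WT and 0.0114 in MD1. Rhox8 had 0.0239 and Rhox10 0.0215 in WT, and both were listed at 0 in MD1. None of the 30 had an allele-specific read.

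Ssx and Slx genes were likewise close to 0. Ssx genes are the mouse relatives of the genes fused in synovial sarcoma, and Slx encodes a spermatid protein related to the synaptonemal complex protein Sycp3. Of 9 Ssx genes 8 were listed at 0 in both groups, and Ssxb1 had 0.00916 FPKM in MD1. Slx had 0 in WT and 0.0171 in MD1, while Slxl1 was listed at 0 in both. No allele-specific read fell on any of these 11 genes.

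In all, 63 of the 68 genes had no allele-specific read. Such reads cover positions where JF1 and B6 differ, and they totalled 544330 and 521768 over X in the WT libraries and 704635 and 806626 in the MD1 libraries. Read numbers scaled to 1000000 X-linked allele-specific reads are called scaled reads here, and a count of 0 allows up to 2.81 scaled reads in WT and 1.99 in MD1, by a limit of 3 reads per group that covers counting error only. The X-linked total includes paternal reads, whose share rose in MD1 for many genes, so scaling to it can lower MD1 values against WT. Which members hold a JF1 variant is not given, so a count of 0 may also reflect a gene without one. For comparison, 24 of 420 X-linked genes with 0.5 FPKM or more in both groups (5.71%) had no such read, and Xlr3b was one of them.

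The Xlr family was the only one of the 6 families with members above 0.1 FPKM. Xlr genes encode nuclear proteins related to Sycp3, and the family was first described in lymphocytes. Of 10 Xlr genes 7 were listed above 0 in MD1 and 5 in WT. Xlr itself (X, 51080295 to 51100883, mm9) lies apart from the others, and had 0.195 FPKM in WT and 0.774 in MD1. Xlr4a (X, 70319684 to 70327846) had 0.0707 and 0.294. On a log2 scale with 0.1 added to the FPKM, the MD1 mean exceeded that of WT by 1.57 for Xlr and 1.21 for Xlr4a. They were the 2 of the 66 genes taken by symbol that were 2-fold or more above WT on this scale, as were 34 of 952 X-linked genes (3.57%). Trap1a and Tktl1 were also above this fold, which their choice by FPKM brings with it.

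The other copies of the Xlr cluster were less than 2-fold apart between the group means on this scale. Xlr3b (X, 70437518 to 70448269) had the highest WT level of all 68 genes at 0.537 FPKM, with 0.522 in MD1. Xlr3a had 0.103 in WT and 0.0782 in MD1, and Xlr4b 0.0496 and 0.0920. Xlr5a and Xlr3c were at 0 in WT and at 0.0185 and 0.00323 in MD1, and Xlr5b, Xlr5c and Xlr4c were listed at 0 in both. No member was 2-fold or more below WT on this scale, against 3.78% of X-linked genes. With 0.1 added, a gene under 0.1 FPKM in WT cannot be called 2-fold lower. This held for 65 of the 68 genes, so the comparison says little about them.

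Values of the single Xlr3, Xlr4 and Xlr5 copies are uncertain, because their transcripts share sequence. Of the 50-base stretches of the Xlr4a transcript in GENCODE M21, 69.5% also occurred in a transcript of another gene, most of them in Xlr4b. The share was 55.7% for Xlr3b, 47.8% for Xlr3a and 84.9% to 90.2% for the Xlr5 genes. Xlr shared 12.04%, and Trap1a and Tktl1 shared none. Among all 68 genes 41 shared at least 50%, and reads of such genes may have been split, dropped or misplaced in the counting.

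Allele-specific reads gave the Xlr genes a value per library. Xlr had 0 and 0 reads in WT and 12 and 5 in MD1, so the groups did not overlap. The ratio of scaled reads had a 95% exact lower limit of 2.91, which covers counting error only. Xlr4a had 1 and 0 reads in WT and 3 and 7 in MD1, a ratio of scaled reads of 7.05 (95% exact interval 1.00 to 306.1, counting error only). Xlr3a had 1 and 2 reads in WT and 0 and 0 in MD1. In scaled reads, 24.2% of the 500 X-linked genes with 10 or more reads had each MD1 library above each WT library.

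Neither Xlr nor Xlr4a passed a test on these reads. The edgeR quasi-likelihood test over the 500 genes gave an adjusted p of 0.260 for Xlr and 0.392 for Xlr4a, whose log2 ratio was 2.57 ± 1.496 (SE). It called 0 genes higher (0%) and 5 lower (1%) in MD1, with 34 higher and 50 lower at an unadjusted p under 0.05, and DESeq2 called 15 higher and 23 lower. With the replicate number as a block, Xlr had an adjusted p of 0.0497 in edgeR, and with any 1 library left out it was 0.428 to 0.515. So few reads cannot settle whether these genes differ.

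The paternal share of Xlr could be read in 1 library. In MD1 replicate 1, 3 of its 12 reads were paternal, or 25.0% (Wilson 95% interval 8.89 to 53.2%), and 9 came from the active maternal X. MD1 replicate 2 and both WT libraries had under 10 reads, for which the authors gave no share. Most of the Xlr reads with a known origin thus came from the B6 X.

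Trap1a had the highest MD1 level of the 68 genes. Its FPKM (X, 135868222 to 135872704, mm9) was 0.0256 in WT and 6.34 in MD1, a ratio of 248.0 between group means without replicates. On the log2 scale with 0.1 added this was 5.68, the second highest value of the 952 X-linked genes and rank 7 of all 22691. Trap1a was chosen in part by its FPKM in MD1, which favours such a rank. It was the only X-linked gene under 0.1 FPKM in WT and at 1 or more in MD1 (0.226% of X-linked genes under 0.1 in WT). Among autosomal genes 9 met that description (0.112% of those under 0.1 in WT), among them Marco, a scavenger receptor gene at 6.19 FPKM in MD1, the chemokine gene Cxcl2 at 3.48, the lectin gene Clec4n at 3.02 and the lipocalin gene Lcn2 at 2.68.

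The allele-specific reads of Trap1a were high in both MD1 libraries. There were 1 and 1 in WT and 18 and 26 in MD1, and the groups did not overlap. As scaled reads these were 1.84 and 1.92 in WT and 25.5 and 32.2 in MD1. Each MD1 library was above each WT library for 24.2% of the 500 X-linked genes with 10 or more reads. Trap1a was chosen in part by its FPKM in MD1, which favours such a separation. Its ratio of scaled reads was 15.5, with a 95% exact interval of 4.05 to 132.2 that covers counting error only. The FPKM ratio lies above that interval, and the WT values on both scales rest on very few reads.

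Every Trap1a read in MD1 came from the paternal X. All 18 reads of replicate 1 and all 26 of replicate 2 were JF1, 100% in each (Wilson 95% lower limits 82.4% and 87.1%). Such limits, here and for Tktl1 and Xlr, describe counting error only, since reads are not independent molecules, and are no test of a gene chosen for its share. The active maternal X gave 0 of 44 reads, which allows a maternal share of up to 6.82%. The WT reads were too few for a share. Trap1a RNA was detected from the X that is normally inactive and not from the one that is active in the same cells.

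**Figure D2:**
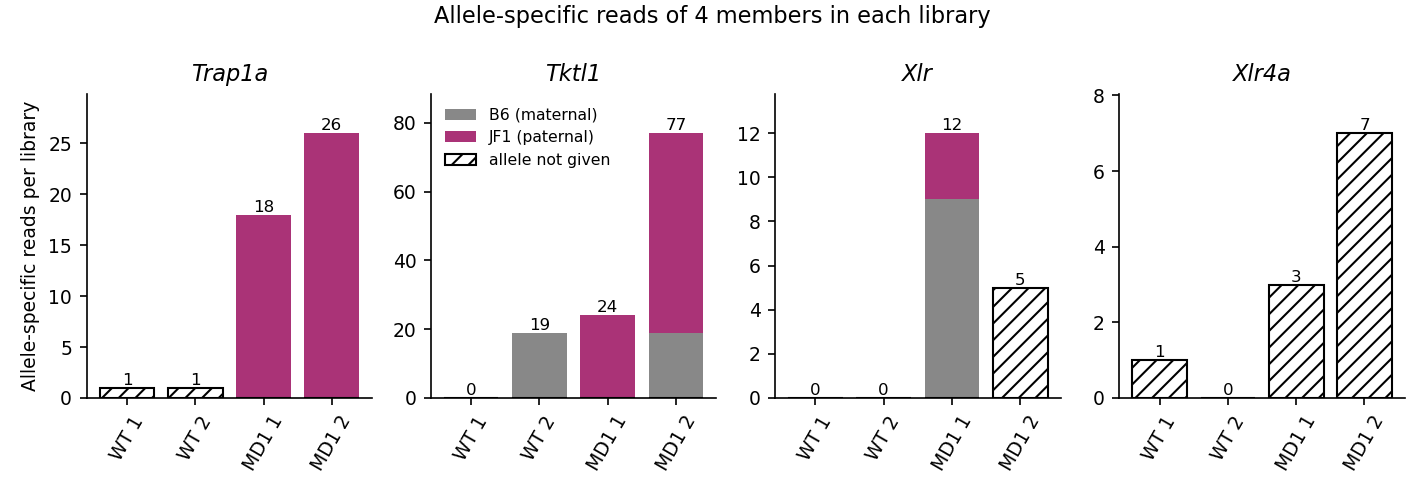
Allele-specific reads per library for Trap1a, Tktl1, Xlr and Xlr4a, with B6 (maternal) reads in grey, JF1 (paternal) reads in purple and hatched bars where the authors gave no share; each panel has its own axis from 0. The Trap1a bars of MD1 are wholly paternal at 18 and 26 reads, and the maternal part of Tktl1 is 19 reads in WT replicate 2 and in MD1 replicate 2.

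Tktl1 encodes a transketolase-like protein related to the enzyme of the pentose phosphate pathway. As with Trap1a, its mean FPKM was higher in MD1, at a lower level. Its FPKM (X, 71422598 to 71453837, mm9) was 0.0739 in WT and 0.419 in MD1, or 1.58 on the log2 scale with 0.1 added, rank 8 of the X-linked genes. The choice of Tktl1 by FPKM in MD1 favours this rank. Reads were 0 and 19 in WT and 24 and 77 in MD1. As scaled reads these were 0 and 36.4 in WT and 34.1 and 95.5 in MD1, so that MD1 replicate 1 lay below WT replicate 2 and the groups overlapped.

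The alleles of Tktl1 are given as a description, since the gene was chosen by its JF1 share in the mutant. WT replicate 1 had 0 reads, so WT replicate 2 alone stands for WT. In WT replicate 2 all 19 reads were maternal, and 0 paternal reads of 19 allow a paternal share of up to 15.8%. In MD1 replicate 1 all 24 reads were paternal (Wilson 95% lower limit 86.2%), and 0 maternal reads of 24 allow up to 12.5%. MD1 replicate 2 had 58 paternal reads of 77, or 75.3% (64.6 to 83.6%, Wilson 95%), and 19 maternal ones. Maternal reads were therefore seen in 1 library of each group, at 19 reads each, and paternal reads in both MD1 libraries. Pooled over MD1 the paternal share was 81.2%.

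Among 438 X-linked genes other than Xist with a pooled share in MD1, these were the highest 2. Both were chosen by this share, so the ranks restate that choice. Trap1a was at 100% and Tktl1 at 81.2%, followed by Araf, a kinase gene, at 75.3%, and no other gene reached 60%. The median of the 438 genes was 12.03%. A gene with equal output from both X chromosomes would lie near the middle of the scale, and these members lay above it in both MD1 libraries.

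Most genes around Trap1a had low paternal shares in MD1. The nearest informative gene before it, Mum1l1, lies 95.3 kb away and rose from 0.0948% ± 0.0384 in WT to 1.76% ± 0.712 in MD1 (SD, n = 2; adjusted p = 2.55e-07, edgeR). The nearest one after it, D330045A20Rik, lies 142.2 kb away and had 0 paternal reads of 38 in WT and 0 of 45 in MD1. Informative means a share in all 4 libraries and a mean of 20 or more reads. Within 1 Mb of Trap1a, 1 of 8 informative genes reached a share of 10% in MD1, and the median was 1.23%, against 13.01% over all 391.

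The genes around Tktl1 had high paternal shares in MD1. Flna, the filamin A gene 14.96 kb after it, rose from 0.0775% ± 0.0155 to 49.2% ± 0.253 (SD, n = 2; adjusted p = 4.78e-148, edgeR). Of 34 informative genes within 1 Mb, 29 reached 10% in MD1, with a median of 41.5% and a highest value of 56.2%. Over all 391 genes 74.4% rose and 0.256% fell in this edgeR test, and 54.0% reached 10%, so the surroundings of the 2 members differ. Both members are above every informative gene within 1 Mb of them, which their choice by this share favours. Neither member is itself informative.

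**Figure D3:**
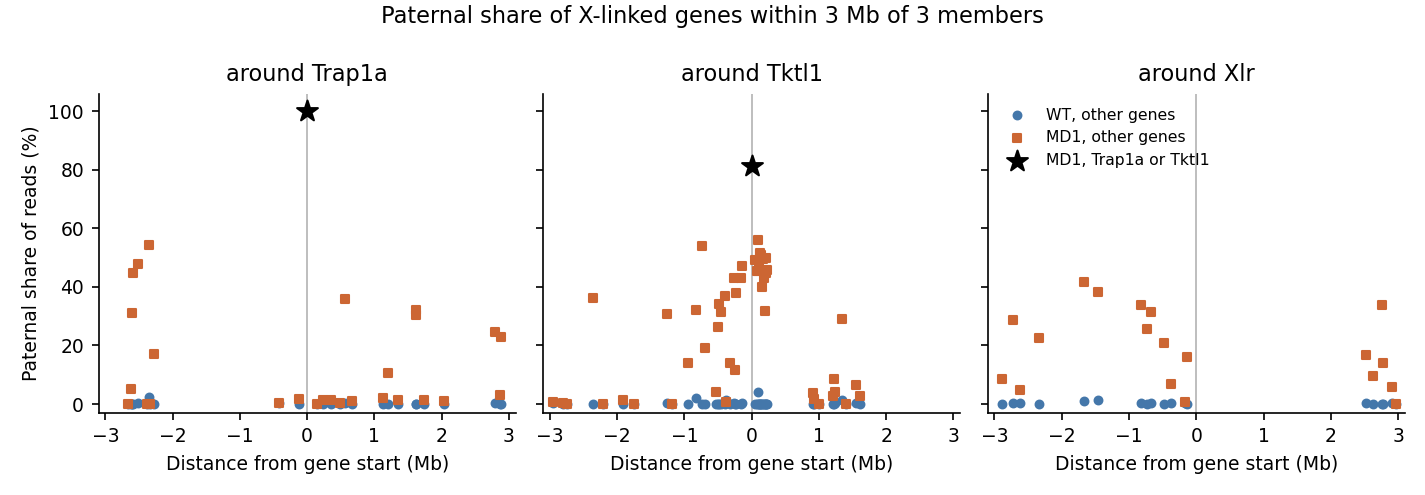
Pooled paternal share in percent of informative X-linked genes against their distance in Mb from the start of Trap1a, Tktl1 and Xlr, with WT in blue, MD1 in orange and the MD1 value of Trap1a or Tktl1 as a star. Trap1a at 100% stands among genes with a median of 1.23% within 1 Mb, and Tktl1 at 81.2% among genes with a median of 41.5%.

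The surroundings of the Xlr genes had higher median paternal shares in MD1 than those of Trap1a. Within 1 Mb of Xlr 5 of 7 informative genes reached 10% in MD1, with a median of 20.9%, and within 1 Mb of Xlr4a 15 of 20 did, with a median of 28.4%. Before Xlr, Cxx1a, a retrotransposon-derived gene 133.4 kb away, had 0 of 39 paternal reads in WT and a mean share of 14.3% ± 12.4 (SD, n = 2) in MD1, with an adjusted p of 0.0695 in edgeR. After it, the next informative gene, Zfp449, is 2498.7 kb away and rose from 0.402% ± 0.568 to 16.99% ± 0.693 (SD, n = 2; adjusted p = 9.44e-15, edgeR). Xlr4a and Xlr3b lie between Zfp185, with 0 paternal reads of 161 in WT and of 91 in MD1, and F8a, which rose from 0% in both WT libraries to 14.2% ± 0.502 in MD1 (SD, n = 2; adjusted p = 2.66e-08, edgeR). No member had enough reads to be informative.

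No listed germline gene outside these families was 2-fold or more above WT, which for lists of this size is near the share over all genes. Of 27 other X-linked germline genes matched, among them the meiotic gene Tex11 and the RNA export genes Nxf2 and Nxf3, 3 had 0.1 FPKM or more in WT and 2 in MD1, and none was 2-fold apart. Over all X-linked genes 3.57% were 2-fold or more above WT and 3.78% below. Of the 27 genes 18 were listed at 0 in both groups. Nxf3 had 0.189 in WT and 0.145 in MD1, Nxf2 0.152 and 0.126. Tex16 had 0.118 and 0.0608, and its paternal share was 0% of 25 reads in WT and 0% of 20 in MD1. Of 40 autosomal germline genes, many of which are silenced by promoter methylation in somatic cells, 0 were 2-fold or more above WT and 3 were 2-fold or more below it, with a median log2 ratio of 0, the same as over all genes. Over all autosomal genes 2.07% were higher and 4.23% lower by this measure. The piRNA factor gene Tdrkh had 1.69 and 2.97 FPKM, Tex15 0.402 and 0.2401, the germ cell helicase gene Ddx4 0.909 and 0.198 and the bromodomain gene Brdt 0.156 and 0.128. The 3 lower genes were Ddx4, Syce1 at 1.27 and 0.00710 FPKM and Rec8 at 0.236 and 0.00965.

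Type II Mage genes are relatives of Magea and Mageb that somatic tissues express widely. The 7 matched all had 0.1 FPKM or more in both groups, and some were abundant. Magee2 was low at 0.128 FPKM in WT and 0.187 in MD1, as was Magel2 at 0.177 and 0.212. Maged1 had 207.4 FPKM in WT and 189.4 in MD1, Maged2 71.5 and 40.4, and the autosomal imprinted gene Ndn 63.9 and 128.1. Of 4 informative X-linked ones 3 rose in paternal share, against 74.4% of all 391 informative genes. Maged1 rose from 0.137% ± 0.00782 to 19.2% ± 4.09 and Magee1 from 0.756% ± 0.122 to 24.2% ± 3.54 (SD, n = 2; adjusted p at most 1.12e-50, edgeR), and Mageh1 from 0% to 1.497% ± 2.12 (SD, n = 2; adjusted p = 0.0337, edgeR). The SD of Mageh1 in MD1 exceeded its mean, so its rise was uneven between the MD1 libraries. Maged2 did not pass, at 0.0826% ± 0.117 in WT and 0.153% ± 0.216 in MD1 (SD, n = 2; adjusted p = 0.465, edgeR).

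Smchd1 itself had 14.7 FPKM in WT and 1.94 in MD1, 13.1% of the WT level. The other factors known to silence germline genes were expressed in both groups. All 18 of the list had 0.1 FPKM or more. Smchd1 was the 1 that was 2-fold or more below WT and 0 were above, against 4.23% and 2.07% of autosomal genes. The KAP1 gene Trim28 had 93.5 and 112.9 FPKM, the E-box factor gene Max 55.8 and 53.8, the maintenance methyltransferase gene Dnmt1 25.7 and 43.4 and the histone methyltransferase gene Ehmt2 41.1 and 40.1.

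The cells carried fibroblast markers in both groups, all 10 above 0.1 FPKM, with Vim at 2789.6 and 2802.3, Col1a1 at 1688.4 and 1080.8, Fn1 at 370.2 and 940.4 and Col1a2 at 848.7 and 477.3. On the log2 scale 1 of the 10, Fn1, was 2-fold or more above WT and 1, Col3a1 at 188.9 and 78.7, below. Germ cell markers were low, since the summed FPKM of 12 was 1.47 in WT and 1.22 in MD1. Kit had 0.247 and 0.524, Ddx4 0.909 and 0.198, Prdm1 0.143 and 0.192 and Nanos3 0.060 and 0.143. Nanos2 was at 0 in both, Dazl at 0.00237 and 0.0231 and Pou5f1 at 0 and 0.0156. Of the 12 markers 1, Ddx4, was 2-fold or more below WT and 0 were above. The 11 trophoblast and placenta markers summed to 0.226 and 0.402, with Tpbpa and Ctsq at 0 in both and Prl3d1 at 0.0368 and 0.160. The 10 markers of gonad somatic cells summed to 37.4 in WT and 19.5 in MD1, and 5 of them were 2-fold or more below WT, against 4.23% of autosomal genes. Among these markers Cyp11a1 had 8.23 and 0.964 FPKM, Wt1 9.58 and 3.71, Gata4 7.27 and 2.61, Inha 3.099 and 3.31 and Sox9 4.41 and 7.10. Fewer cells of a type and less RNA per cell cannot be told apart in such bulk samples, and the part of these markers in the Trap1a and Tktl1 values was not tested.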

How the data were processed

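Polyadenylated RNA was sequenced from 2 WT and 2 MD1 libraries with a stranded kit, per the labels' protocols. The submitters' processing notes name mm9, Cufflinks 2.2.1 and Cuffdiff; aligner and JF1 variant source: not given in the sources used here. The authors deposited allele-specific reads as counts, the JF1 share as a fraction where a library had 10 or more reads, and total expression as FPKM, a mean per group. Share times reads was whole within 0.001 for 100% of values, which gave JF1 reads. Reads that map better to a B6-based reference would lower a JF1 share. Starts in the table count from 0 (9511 spans equalled RefSeq lengths with 1 added, 620 as given), and mm9 coordinates are printed 1-based.

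FPKM ratios are log2 of (FPKM + 0.1), MD1 over WT, with no test, and understate the change of low genes. The edgeR 4.0.16 quasi-likelihood test in R 4.3.3 was run on paternal shares of 391 informative genes and on reads of 500 X-linked genes, two-sided, Benjamini-Hochberg at 0.05 over each set. The share model had library, allele and allele-by-genotype terms, and reads were scaled to the X-linked total. That total includes paternal reads, whose median share over informative genes was 0.0538% in WT and 13.01% in MD1. Scaling to it can therefore lower scaled reads and fitted read ratios of MD1 against WT. Both were also run on simulated data. The simulated shares varied by counting error only, and the simulated reads had a fixed spread between libraries. Those runs therefore do not give error rates for these libraries. DESeq2 1.42.0, other normalizations, filters, pseudocounts, a replicate block and leaving out each library were tried. Members with 0.1 FPKM or 10 reads, and the nearest informative genes of those at 0.1 FPKM in MD1, are given by value, except 1 neighbour that is not reported here. Of each list, up to 4 genes with the highest MD1 FPKM are named, and any other genes named were chosen after their values were seen. The members and lists were chosen with earlier results of these data known. Promoters are RefSeq GRCm38.p6; 50-base stretches were compared over GENCODE M21 transcripts.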

Additional observations from a re-analysis of the deposited data

How the results depend on the processing

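At a minimum of 0.5 FPKM, 1 member in WT and 3 in MD1 were listed above it, and at 0.05 there were 5 and 7. With a pseudocount of 1, 1 member, Trap1a, was at least 2-fold higher in MD1, and with 0.01 there were 6 above WT by 2-fold or more and 2 below it, while centring and a filter on FPKM left both counts as they were. The paternal share of Trap1a was 100% with either MD1 library left out, and that of Tktl1 was 75.3% to 100%.

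The number of X-linked genes whose paternal share fell in edgeR was 1, and 0 with the replicate block or with any 1 library left out, while 270 to 280 rose with 1 library left out. For allele-specific reads, edgeR called 0 genes higher with any 1 library left out and 1 to 4 lower. It called 4 higher with TMM normalization and 4 without a filter, DESeq2 called 15 higher and 23 lower, and the replicate block gave 47 higher and 71 lower. The labels do not say that a replicate number marks a shared litter or day, so the numbers were not taken as pairs, although deviations of same-numbered libraries correlated at 0.394 over the informative genes. DESeq2 gave no adjusted p for Xlr or Xlr4a. The fitted log2 ratio of these 2 genes kept its sign under every other alternative run, and Xlr passed with the replicate block alone. Fits with 1 library left out assume that the lone library varies like the other group. Depth limits all allele-specific values of the members, since 4 of 68 had 10 or more reads in total.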
